A study of Mus musculus with 52 samples.

Results

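The comparison described here set the whole brain of C57BL/6 mice at 3 months against the same tissue at 1 month. Its members are the 3 brain libraries labelled C57BL/6 at 3 months and the 3 labelled C57BL/6 at 1 month, which are 6 of the 52 libraries of the series. Both groups were female and labelled healthy, and the labels name no transgene and no drug treatment. All animals were perfused with PBS before the tissue was taken. C57BL/6 is an inbred laboratory strain that served as the healthy comparison for NZB/W-F1 (the F1 of NZB and NZW), a hybrid that develops a lupus-like disease. The series covers kidney, spleen and brain of both strains at 1, 3 and 6 months, and RNA was sequenced from bulk tissue. The labels number 3 samples in each group without naming animals. The p-values rest on the spread between numbered samples within a group, pooled over all 6 brain groups of both strains and all ages.

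Between weaning and adulthood the mouse brain passes from the peak of myelin formation to its upkeep. Oligodendrocytes arise from precursor cells, pass through a short premyelinating stage, and then wrap axons in a membrane made of a few very abundant proteins and of galactolipids. Over the same period the meninges and vessel walls stop laying down fibrillar collagen and elastin at the rate of a growing organ, and the production of new neurons falls to that of the adult niches.

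Values are CPM (counts per unit of a library total of 1000000, on the scale the authors deposited, which includes a factor per library). They can be compared between libraries for 1 gene but not between genes, since they are not divided by transcript length. The 6 libraries held 9.24 to 17.5 times 1000000 reads counted in genes (median 14.7 in the same unit), and 3 reads in a library equal 0.172 to 0.329 CPM. All 14895 genes of the table were tested with limma on log2(CPM + 0.5) in 1 fit of all 6 brain groups, and a gene was called at a Benjamini-Hochberg adjusted p under 0.05. The libraries carry brain RNA, with 12460 to 14372 CPM summed over 14 neuronal marker genes in each. Their sums of caudal marker genes differ. The 13 tested hindbrain and spinal cord genes, mostly of the Hox clusters, summed to 151, 58.7 and 12.2 CPM at 1 month and to 59.9, 34.6 and 105 CPM at 3 months, and the groups overlapped. In bulk tissue, fewer cells of a type and less RNA per cell cannot be told apart.

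Few genes differed between the ages. Of the 14895 genes, 74 (0.497%) passed, 28 (0.188%) higher and 46 (0.309%) lower at 3 months, and 1517 had an unadjusted p under 0.05 (4.99% of all genes as higher and 5.19% as lower). The edgeR quasi-likelihood test on the recovered reads called 98, which included all 74. Among the 74 genes, 15 fell by a log2 fold change of 1 or more and 10 rose by as much, and the 2 groups of libraries did not overlap in any of the 74. Over all genes, 17.1% had groups that did not overlap, 8.67% with 3 months above and 8.41% with 3 months below, and the median log2 fold change was 0.00. The estimate was above 0 in 50.1% of all genes and below 0 in 49.9%. Leaving out any 1 library lowered the count of calls to between 23 and 34, and 27 of the 74 calls passed in none of these 6 fits. The other extreme is a set of 17 genes that passed under all 15 alternative fits that tested them. Every other gene named below except H1f0 lost its call in at least 1 fit that left out a library. The 17 are the falling genes Col3a1, Rab7b, Gsn, Bmf, Marcksl1, Cldn11, Mog, Rnf122, Prom1, Arpc1b and Dnmt3a, and the rising genes Il33, Abca8a, Serpinb1a, Gm42756, C030029H02Rik and A230001M10Rik. The 15 alternatives include the fit without a filter, which repeats the main fit because all 14895 genes passed the filter.

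Of 45 gene lists, that of myelin held the most falls. Of its 28 tested genes for myelin proteins and lipids, 9 fell, none rose, 21 had a lower and 7 a higher estimate at 3 months, and the median log2 fold change was -0.56 against 0.00 over all genes. In 15 of the 28 (53.6%) every 3-month library lay below every 1-month library, against 8.41% of all genes. In 2 (7.14%) every 3-month library lay above, against 8.67% of all genes. The 28 genes together summed to 23802, 20158 and 15503 CPM at 1 month and to 13502, 10145 and 10922 CPM at 3 months. The 3 sums at 1 month were all above the 3 sums at 3 months. Within the 1-month group the library with the most myelin RNA had the highest Hox sum and the one with the least had the lowest. Within the 3-month group the library with the least myelin RNA again had the lowest Hox sum. The most myelin RNA at 3 months, 13502 CPM, was in the library with a Hox sum of 59.9 CPM. The 3-month library with the highest Hox sum, 105 CPM, had 10922 CPM. The part of caudal tissue in the myelin result was not tested.

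The upstream sequences of the 3 fallen myelin genes with the smallest p are shown because oligodendrocyte transcription factors act on myelin genes. No test reported here uses these sequences. Each is the 250 bases before the RefSeq start site, 5′ to 3′ on the strand of the gene, on GRCm38.p6. Capitals mark matches to the SOX-type letters ACAAAG or ACAATG, as bound by SOX10, and to CTGGCAC or CTGGTAC, as bound by MYRF, a regulator of oligodendrocyte maturation. Both strands were searched, and no match overlaps another in the windows shown. Mog lies at chr17:37023399-37023648 on the minus strand, Cldn11 at chr3:31149670-31149919 on the plus strand and Cnp at chr11:100574689-100574938 on the plus strand.
Mog: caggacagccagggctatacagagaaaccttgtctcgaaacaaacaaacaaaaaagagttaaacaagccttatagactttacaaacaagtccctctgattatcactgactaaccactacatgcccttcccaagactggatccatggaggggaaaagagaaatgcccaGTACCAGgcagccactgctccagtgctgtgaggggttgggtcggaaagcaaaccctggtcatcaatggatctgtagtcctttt
Cldn11: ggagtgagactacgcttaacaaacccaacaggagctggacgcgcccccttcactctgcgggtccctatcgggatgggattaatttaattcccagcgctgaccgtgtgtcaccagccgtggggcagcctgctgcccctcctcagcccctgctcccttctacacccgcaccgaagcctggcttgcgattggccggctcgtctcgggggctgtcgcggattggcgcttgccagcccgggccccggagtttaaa
Cnp: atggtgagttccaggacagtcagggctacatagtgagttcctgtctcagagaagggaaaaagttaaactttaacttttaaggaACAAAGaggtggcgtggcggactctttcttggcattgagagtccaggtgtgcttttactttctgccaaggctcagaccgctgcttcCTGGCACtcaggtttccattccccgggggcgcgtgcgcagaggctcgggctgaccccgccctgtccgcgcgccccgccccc
The Mog window holds 1 MYRF match, the Cnp window 1 of each kind, and the Cldn11 window neither. RefSeq start sites were matched for 8 of the 9 fallen myelin genes, with 11 windows in all because some genes have several start sites, whose windows may overlap. A SOX match was present in 5 of the 11 windows (4 genes) and in 17.6% of the 14441 windows of all tested genes. A MYRF match was present in 2 of the 11 (2 genes) and in 5.62% of all windows. A match of letters is a description of the window and not a bound site.

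Mog, myelin oligodendrocyte glycoprotein on the outer face of the sheath, was measured at 260, 220 and 191 CPM at 1 month and at 129, 97.9 and 95.4 CPM at 3 months. Every 3-month library was below every 1-month library, and the log2 fold change was -1.05 (SE 0.15, limma adjusted p = 0.0020). Cldn11, the claudin of the radial tight junctions in myelin, was at 661, 539 and 441 CPM and then at 307, 240 and 235 CPM (log2 fold change -1.06, SE 0.17, limma adjusted p = 0.0053). The groups again did not overlap, and both genes passed under every alternative fit. Cnp, a phosphodiesterase of non-compact myelin, went from 1135, 1068 and 877 CPM to 675, 533 and 570 CPM (log2 fold change -0.79, SE 0.14, limma adjusted p = 0.015). Its call was lost, at an adjusted p of 0.0662 to 0.0819, when 1-month replicate 1 or 2 or 3-month replicate 2 or 3 was left out.

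Mobp, a small basic protein of compact myelin, was at 2647, 2379 and 1844 CPM at 1 month and at 1459, 1108 and 1099 CPM at 3 months (log2 fold change -0.90, limma adjusted p = 0.032). Mal, a proteolipid of membrane sorting, was at 768, 607 and 534 CPM and then at 372, 341 and 271 CPM (log2 fold change -0.95, limma adjusted p = 0.020). Tspan2, an oligodendrocyte tetraspanin, was at 440, 305 and 287 CPM and then at 188, 184 and 138 CPM (log2 fold change -1.004, limma adjusted p = 0.028). In each of these genes the highest 3-month library was below the lowest 1-month library.

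Both enzymes of galactolipid synthesis that lead to the characteristic myelin lipids fell. Ugt8a, which makes galactosylceramide, was at 235, 166 and 189 CPM at 1 month and at 95.9, 106 and 79.4 CPM at 3 months (log2 fold change -1.06, SE 0.19, limma adjusted p = 0.019). Gal3st1, which adds the sulfate to make sulfatide, was at 35.1, 41.4 and 30.1 CPM and then at 21.9, 15.99 and 20.4 CPM (log2 fold change -0.85, SE 0.17, limma adjusted p = 0.026). The groups did not overlap in either gene. Fa2h, which hydroxylates the fatty acids of these lipids, was at 149, 145 and 107 CPM and then at 90.1, 68.6 and 87.3 CPM, without overlap, and did not pass (log2 fold change -0.70, limma adjusted p = 0.067). Elovl1, which lengthens fatty acids, fell by 0.80 on the log2 scale (limma adjusted p = 0.0497).

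Other defining myelin genes did not pass. Mbp, myelin basic protein, was at 9197, 8600 and 5581 CPM at 1 month and at 5609, 3368 and 4418 CPM at 3 months, so that the highest 3-month library lay just above the lowest 1-month library (log2 fold change -0.80, SE 0.23, limma adjusted p = 0.15). Mag, the glycoprotein of the innermost wrap, also overlapped (log2 fold change -0.53, limma adjusted p = 0.41). A few members of the list had higher estimates at 3 months. Car2, carbonic anhydrase 2, was at 217, 198 and 185 CPM and then at 284, 257 and 245 CPM, and Anln, which organises septin filaments, was at 48.7, 34.7 and 36.4 CPM and then at 55.5, 58.3 and 54.3 CPM. Both were without overlap and did not pass (limma adjusted p = 0.11 for Car2 and 0.21 for Anln).

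**Figure D1:**
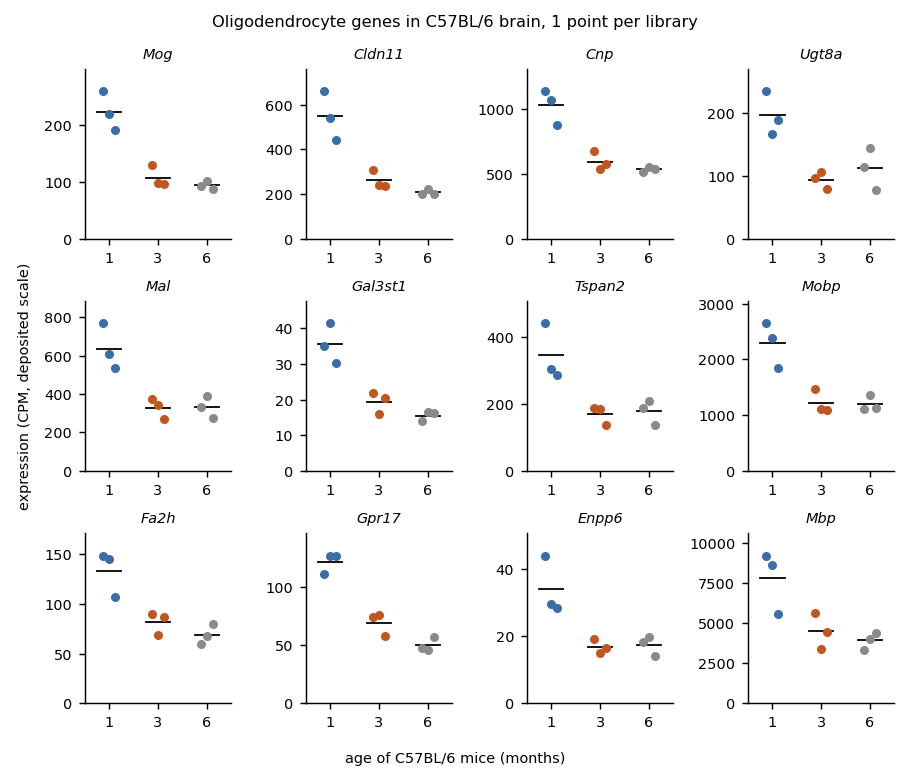
Expression in CPM (linear axis from 0) of 12 oligodendrocyte genes in C57BL/6 brain against age in months, with 1 point per library and a bar at the mean of 3. The 1-month points lie above all 3-month points in each panel except that of Mbp, where 5609 CPM at 3 months exceeds 5581 CPM at 1 month; the 6-month points are shown for their level.

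At 6 months the C57BL/6 means of Mog and Cldn11 were 94.0 ± 6.66 and 207 ± 13.6 CPM (SD, n = 3). Their 3-month means were 108 ± 18.99 and 261 ± 40.2 CPM (SD, n = 3). These levels are given side by side and were not tested.

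Some genes of the stages before myelination fell. Of 20 genes of precursors and premyelinating cells, 3 fell and none rose, 18 had a lower estimate, and the median log2 fold change was -0.35. Gpr17, a receptor of committed premyelinating cells, was at 111, 127 and 127 CPM at 1 month and at 74.5, 75.7 and 57.6 CPM at 3 months (log2 fold change -0.82, SE 0.15, limma adjusted p = 0.019). Enpp6, a choline phosphodiesterase of newly formed oligodendrocytes, was at 43.9, 29.6 and 28.2 CPM and then at 18.9, 14.8 and 16.5 CPM (log2 fold change -0.97, SE 0.19, limma adjusted p = 0.024). Neither gene's groups overlapped. 9630013A20Rik, a long noncoding RNA gene opposite Pcdh17, was at 17.8, 12.1 and 13.9 CPM and then at 5.29, 3.59 and 1.49 CPM, the lowest log2 fold change of the 74 genes at -2.05 (SE 0.35, limma adjusted p = 0.013). The strand setting of the counting is not stated, so reads of this gene and of Pcdh17 in the shared stretch cannot be told apart. The same limit holds for Gpr17 with Lims2, Cnp with Dnajc7, Tspan2 with Tspan2os, Dnmt3a with Dnmt3aos, Arpc1b with Pdap1, Elovl1 with Cdc20, Srd5a1 with Nsun2, Hnrnph3 with Rufy2 and Dnaja4 with Wdr61, each pair on opposite strands. The precursor receptor Pdgfra was at 88.9, 86.1 and 92.2 CPM and then at 66.3, 76.5 and 65.05 CPM, without overlap and without passing (log2 fold change -0.36, limma adjusted p = 0.092). Leaving out 1 library left 0 to 3 calls in this list and 2 to 8 in the myelin list, whose median stayed between -0.75 and -0.42. The myelin count was lowest, at 2, without 1-month replicate 1 and without 3-month replicate 3.

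**Figure D2:**
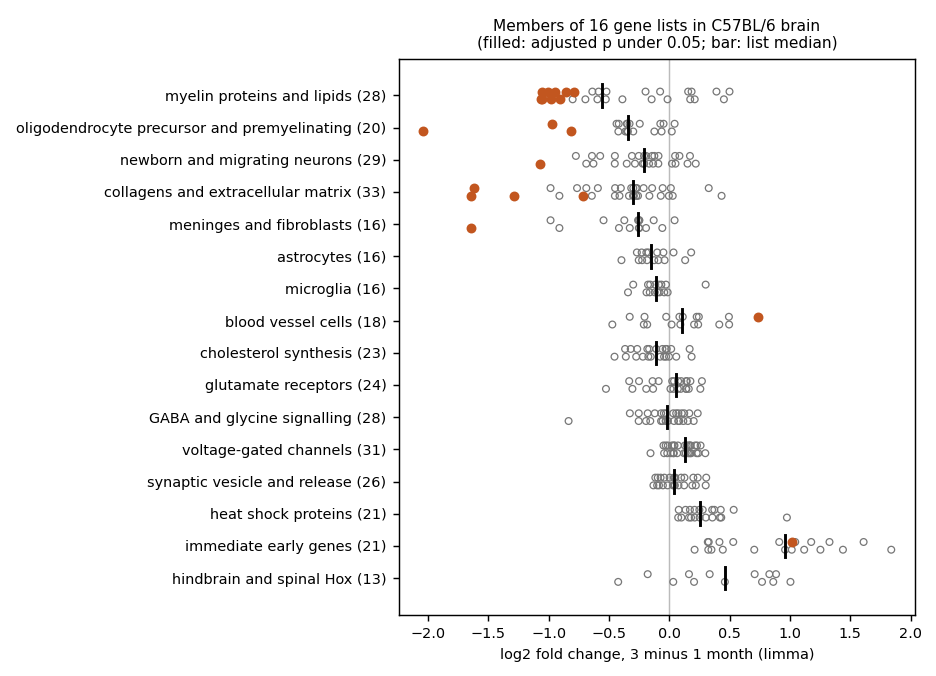
Log2 fold changes (3 minus 1 month) of the members of 16 gene lists in C57BL/6 brain, with 1 point per gene, filled where the limma adjusted p was under 0.05, and a bar at the list median; the number of tested genes follows each name. Medians run from -0.56 for myelin genes to 0.96 for immediate early genes, and those of the synapse and channel lists lie between -0.02 and 0.13.

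Several other genes fell outside these lists. Gsn, gelsolin, which severs actin filaments and is abundant in oligodendrocytes, was at 336, 327 and 249 CPM at 1 month and at 158, 115 and 138 CPM at 3 months (log2 fold change -1.15, SE 0.18, limma adjusted p = 0.0054). Arpc1b, a subunit of the actin-branching Arp2/3 complex, was at 41.4, 45.1 and 35.2 CPM and then at 23.9, 20.7 and 20.6 CPM (log2 fold change -0.88, limma adjusted p = 0.0044). The groups of both genes were clearly apart. Rab7b, a small GTPase of late endosomes, was at 8.56, 7.74 and 7.56 CPM and then at 3.41, 2.72 and 2.81 CPM (log2 fold change -1.28, limma adjusted p = 0.0052). Prom1, a membrane glycoprotein of progenitor and ependymal cells, was at 20.3, 17.6 and 22.2 CPM and then at 10.2, 10.6 and 8.32 CPM (log2 fold change -1.01, limma adjusted p = 0.0015). Rnf122, a RING-finger ubiquitin ligase, was at 26.0, 27.3 and 25.3 CPM and then at 13.4, 11.1 and 13.3 CPM (log2 fold change -1.03, limma adjusted p = 0.0015). In all 3 the replicates of an age lay close together and far from those of the other age.

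Bmf and Mybpc3 were also among the falls named by size. Bmf, a BH3-only activator of apoptosis, was at 14.9, 12.9 and 12.6 CPM at 1 month and at 5.80, 5.21 and 7.23 CPM at 3 months (log2 fold change -1.09, SE 0.15, limma adjusted p = 0.0018). Its groups did not overlap, and it passed in every alternative. Mybpc3, best known as a myosin-binding protein of heart muscle, was at 13.2, 20.9 and 16.2 CPM and then at 6.57, 2.67 and 7.69 CPM (log2 fold change -1.58, SE 0.30, limma adjusted p = 0.022).

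Some genes of the extracellular matrix fell. Of 33 genes of collagens and extracellular matrix, 4 fell and none rose, 29 had a lower estimate, and the median log2 fold change was -0.30. Of the 33, 14 (42.4%) lay wholly below the 1-month libraries, against 8.41% of all genes. Col3a1 (chromosome 1, 45311538 to 45349706, plus strand, GRCm38), a fibrillar collagen of soft tissue, was at 30.02, 27.8 and 35.9 CPM at 1 month and at 8.10, 9.62 and 11.3 CPM at 3 months (log2 fold change -1.65, SE 0.24, limma adjusted p = 0.0033). Eln, elastin, was at 26.6, 33.7 and 29.8 CPM and then at 12.4, 5.79 and 11.6 CPM (log2 fold change -1.61, SE 0.28, limma adjusted p = 0.015). In both genes the highest 3-month library was below the lowest 1-month library. Lox, the enzyme that cross-links collagen and elastin, was at 4.92, 3.47 and 4.60 CPM and then at 1.45, 1.04 and 2.01 CPM, from 160 reads and 70 reads in all (log2 fold change -1.29, limma adjusted p = 0.036). Sparc, a collagen-binding glycoprotein made by astrocytes and vessels, was at 1478, 1316 and 1017 CPM and then at 811, 662 and 825 CPM, at the edge of the threshold (log2 fold change -0.72, limma adjusted p = 0.0497). The calls on Lox and Sparc were lost when only the compared groups were fitted, at an adjusted p within 0.0511 to 0.16 for Lox and 0.111 to 0.209 for Sparc over the fits that lost them. With 1 library left out, 1 or 2 genes of the list were called.

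Both chains of type I collagen had lower estimates that did not pass. Col1a2 was at 76.8, 95.2 and 97.8 CPM at 1 month and at 40.4, 45.2 and 58.0 CPM at 3 months (log2 fold change -0.91, limma adjusted p = 0.087). Col1a1 varied more within an age, at 48.7, 81.5 and 70.5 CPM and then 30.3, 25.1 and 46.5 CPM (log2 fold change -0.98, SE 0.38, limma adjusted p = 0.34). Neither gene's groups overlapped. Nid1, nidogen of the basement membrane, was close to the threshold (log2 fold change -0.69, limma adjusted p = 0.056). Among 16 marker genes of meninges and fibroblasts, 15 had a lower estimate and the median log2 fold change was -0.26, with Col3a1 as the single call. That median was -0.14 without 3-month replicate 1, -0.44 without 3-month replicate 3 and -0.40 without 1-month replicate 1. Summed, these markers were at 1869 to 2414 CPM at 1 month and at 1278 to 1781 CPM at 3 months, so the groups did not overlap. The part of the amount of meninges in each dissection in the matrix genes was not tested.

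Of 29 genes of newborn and migrating neurons, 1 fell, 22 had a lower estimate and the median log2 fold change was -0.21, or -0.13 without 1-month replicate 2. The gene that fell was Marcksl1, an actin-binding protein of developing and regenerating neurons, at 182, 211 and 193 CPM at 1 month and at 108, 88.8 and 82.2 CPM at 3 months (log2 fold change -1.07, SE 0.14, limma adjusted p = 0.0015). Its groups were far apart and its call held under every alternative. Neurod1, a transcription factor of differentiating granule neurons, was at 46.1, 56.3 and 64.2 CPM and then at 35.3, 26.9 and 41.3 CPM, without overlap (log2 fold change -0.69, limma adjusted p = 0.18). Dcx, doublecortin of migrating neurons, overlapped (log2 fold change -0.64, limma adjusted p = 0.40). Of 20 tested cell cycle genes, none was called by limma or by edgeR and none had an unadjusted p under 0.05. None of the 20 had groups without overlap, against 17.1% of all genes. The estimates of the cell cycle genes leaned upward, with 14 of 20 higher and a median log2 fold change of 0.13. Summed, they were at 89.2 to 93.4 CPM at 1 month and at 97.2 to 102 CPM at 3 months, without overlap.

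Dnmt3a, H1f0 and Cbx6 also fell. Dnmt3a, the de novo DNA methyltransferase that methylates neuronal genomes after birth, was at 132, 131 and 122 CPM at 1 month and at 85.9, 82.4 and 83.7 CPM at 3 months (log2 fold change -0.61, SE 0.09, limma adjusted p = 0.0044). H1f0, a linker histone of differentiated cells, was at 177, 175 and 161 CPM and then at 125, 111 and 119 CPM (log2 fold change -0.53, SE 0.08, limma adjusted p = 0.0054). The spread within an age was small in both, and the groups did not overlap. Cbx6, a Polycomb protein, fell by 0.50 on the log2 scale (limma adjusted p = 0.019). Dnmt3a, H1f0, Cbx6, Arpc1b, Elovl1 and Lox were named after their values were seen.

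The change with the smallest p was a rise. Il33 (chromosome 19, 29925114 to 29960718, plus strand, GRCm38), a nuclear alarmin cytokine that in the brain is made mainly by oligodendrocytes and astrocytes, was at 18.2, 17.4 and 17.5 CPM at 1 month and at 60.4, 73.5 and 67.5 CPM at 3 months. The 1-month libraries lay within a CPM of each other, and the 3-month mean of 67.1 ± 6.55 CPM (SD, n = 3) was 3.79 times the 1-month mean of 17.7 ± 0.467 CPM (SD, n = 3). The log2 fold change was 1.89 (SE 0.15, limma adjusted p = 5.0e-06). At 6 months the mean was 106 ± 19.99 CPM (SD, n = 3). Abca8a, an ABC transporter of lipids, was at 2.99, 2.07 and 3.61 CPM and then at 6.91, 12.5 and 10.4 CPM (log2 fold change 1.61, SE 0.21, limma adjusted p = 0.0015). Serpinb1a, an inhibitor of neutrophil serine proteases, was at 8.15, 5.73 and 5.92 CPM and then at 16.2, 17.4 and 16.3 CPM (log2 fold change 1.29, SE 0.17, limma adjusted p = 0.0015).

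Other rises were smaller. Hsf4, a heat shock transcription factor, was at 10.8, 12.2 and 6.57 CPM at 1 month and at 20.7, 16.3 and 20.9 CPM at 3 months (log2 fold change 0.97, limma adjusted p = 0.036). Neat1, the noncoding RNA that builds paraspeckles, was at 44.9, 27.8 and 42.1 CPM and then at 64.8, 63.6 and 64.4 CPM (log2 fold change 0.77, limma adjusted p = 0.022). Flt1, a receptor for VEGF on endothelial cells, was at 22.2, 19.7 and 24.6 CPM and then at 37.6, 36.3 and 37.5 CPM (log2 fold change 0.74, limma adjusted p = 0.0497). In each of them all 1-month libraries were lower than every 3-month library. Flt1 was the single call among 18 marker genes of vessel cells, whose median log2 fold change was 0.10, and it did not pass under the 2 other scalings. Apln, the ligand of the apelin receptor, rose by a log2 fold change of 0.60 (limma adjusted p = 0.036), from 25.4 to 30.9 CPM at 1 month to 38.6 to 47.0 CPM at 3 months.

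Gatm and Ass1, enzymes of arginine metabolism, rose. Gatm, which makes the precursor of creatine from arginine, was at 107, 90.6 and 92.9 CPM at 1 month and at 144, 154 and 142 CPM at 3 months (log2 fold change 0.60, limma adjusted p = 0.020). Ass1, which makes argininosuccinate, was at 21.8, 19.8 and 16.8 CPM and then at 32.2, 26.0 and 34.3 CPM (log2 fold change 0.65, limma adjusted p = 0.021). Neither gene's groups overlapped. Of the 31-base words of the Ass1 transcripts, 43.1% also occur in another gene, so its reads may be shared with copies. The same holds for Pcdhga9 of the clustered protocadherins, where 41.3% of the words occur in another gene (log2 fold change 0.77, limma adjusted p = 0.036). The remaining rises named by size described here were Hnrnph3, a splicing factor (0.67, limma adjusted p = 0.035), and Dnaja4, a co-chaperone (0.59, limma adjusted p = 0.036), both as log2 fold changes.

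**Figure D3:**
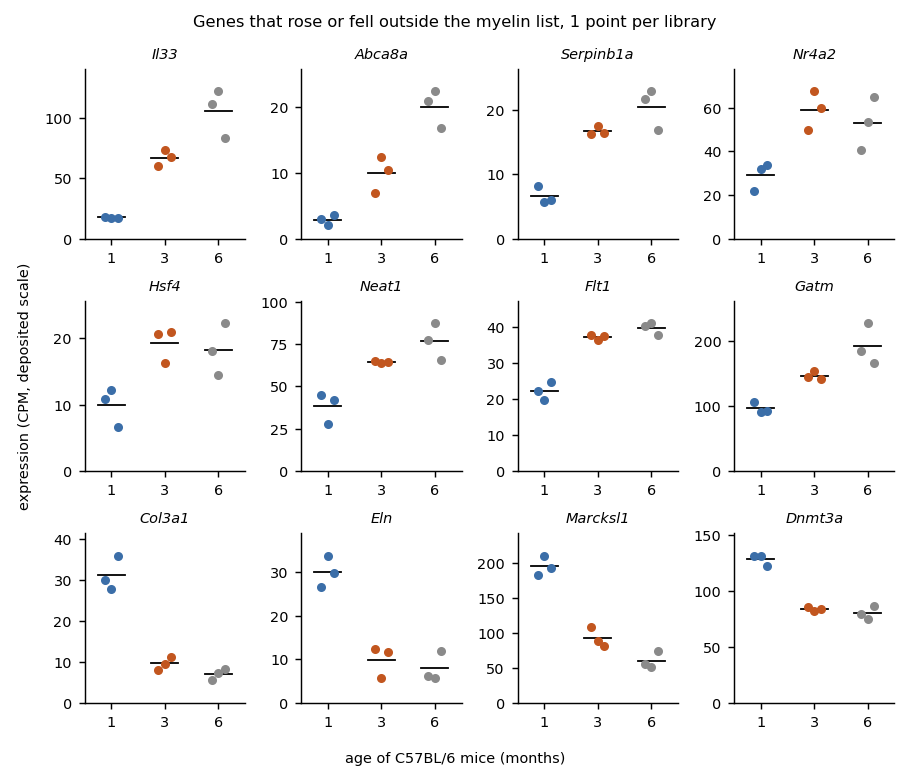
Expression in CPM (linear axis from 0) of 8 genes that rose and 4 that fell between 1 and 3 months in C57BL/6 brain, outside the myelin list, with 1 point per library and a bar at the mean of 3. In every panel the 1-month and 3-month points are separate, as for Il33 with 18.2 CPM as the highest 1-month and 60.4 CPM as the lowest 3-month library. The naming rule required this separation, except for Dnmt3a, which was named after its values were seen, so it adds no support.

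Activity-regulated genes had higher estimates at 3 months, and 1 of them passed. Of 21 immediate early genes, which neurons transcribe within minutes of firing, 1 rose, all 21 had a higher estimate, and the median log2 fold change was 0.96. In 14 of the 21 (66.7%) the 3-month libraries lay wholly above the 1-month libraries, against 8.67% of all genes. Nr4a2, a nuclear receptor also needed by dopamine neurons, was the call, at 21.9, 31.9 and 33.8 CPM at 1 month and at 49.6, 67.6 and 59.6 CPM at 3 months (log2 fold change 1.01, SE 0.19, limma adjusted p = 0.022). Fos, a subunit of the AP-1 transcription factor, was at 17.6, 37.5 and 40.3 CPM and then at 81.0, 69.6 and 77.3 CPM, without overlap and without passing (log2 fold change 1.33, SE 0.31, limma adjusted p = 0.062). Arc, a regulator of synaptic strength, was at 47.2, 182 and 180 CPM and then at 365, 278 and 307 CPM (log2 fold change 1.44, SE 0.46, limma adjusted p = 0.21). Egr1, a zinc finger transcription factor induced by firing, was at 156, 252 and 253 CPM and then at 431, 484 and 418 CPM (log2 fold change 1.04, limma adjusted p = 0.093).

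One library weighed on these values. The 21 genes summed to 690, 1239 and 1275 CPM at 1 month and to 1999, 2057 and 1877 CPM at 3 months, so 1-month replicate 1 was the lowest, and the other two were still below every 3-month library. Without that replicate the median log2 fold change was 0.55. The call on Nr4a2 was lost without it and also without 1-month replicate 2, 3-month replicate 2 or 3-month replicate 3 (limma adjusted p 0.0569 to 0.128). The handling of the animals and the time of day at which they were killed are not given in the labels, and their part in the result was not tested.

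Heat shock proteins also had higher estimates. Of 21 genes, none was called by limma or by edgeR, 6 had an unadjusted p under 0.05, and all 21 had a higher estimate. Of the 21, 9 (42.9%) lay wholly above, against 8.67% of all genes, and the median log2 fold change was 0.25. Hsph1, a partner of the HSP70 chaperones, was at 236, 252 and 276 CPM at 1 month and at 355, 388 and 290 CPM at 3 months (log2 fold change 0.43, limma adjusted p = 0.085). Hspa8, the constitutive HSP70, was at 1020, 1029 and 1050 CPM and then at 1352, 1254 and 1158 CPM (log2 fold change 0.28, limma adjusted p = 0.35). Of its 31-base words, 43.5% also occur in another gene, so its reads may be shared with copies.

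**Figure D4:**
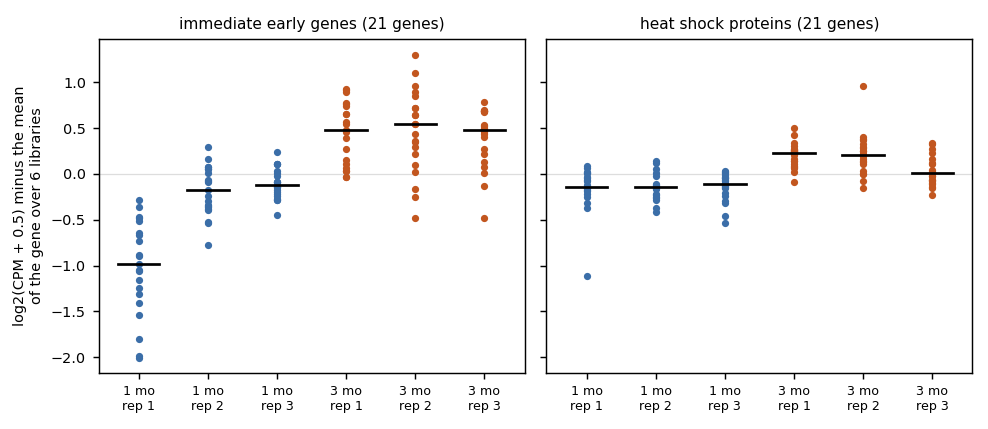
Log2(CPM + 0.5) of each of 21 immediate early genes (left) and 21 heat shock proteins (right) in the 6 libraries, after subtracting the mean of the gene over the 6, with a bar at the median of each library. For immediate early genes the 3-month libraries are high and 1-month replicate 1 is lowest; its genes sum to 690 CPM against 1239 and 1275 CPM in the other 1-month libraries.

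Genes of synapses and channels showed no calls. None of 24 glutamate receptor genes, 28 genes of GABA and glycine signalling, 31 voltage-gated channel genes or 26 genes of synaptic vesicles was called by limma or by edgeR. At an unadjusted p under 0.05 there were 2, 2, 1 and 1 such genes, and the median log2 fold changes were 0.06, -0.02, 0.13 and 0.04. Among the channels, 25 of 31 had a higher estimate. Gabra6, the GABA-A receptor subunit of cerebellar granule cells, was at 55.9, 64.9 and 87.3 CPM at 1 month and at 37.6, 30.5 and 47.8 CPM at 3 months, without overlap and without passing (log2 fold change -0.83, limma adjusted p = 0.087). The 17 cerebellar markers summed to 1953, 2094 and 2446 CPM at 1 month and to 1889, 1694 and 2591 CPM at 3 months, with overlap. None of them was called by limma or edgeR, 5 had an unadjusted p under 0.05, 14 had a lower estimate, and the median log2 fold change was -0.26. With all libraries, 2 of the 17 (11.8%) lay wholly below, against 8.41% of all genes. The median was -0.49 without 3-month replicate 3, where 10 of 17 lay wholly below, against 12.3% of all genes in that setting. It was -0.12 without 3-month replicate 2, where 2 of 17 lay wholly below, against 16.3% of all genes. The part of the amount of cerebellum in the values of Gabra6 and Neurod1 was not tested.

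No call was made among markers of several other brain cells. No gene was called by limma or edgeR among 16 astrocyte markers (median log2 fold change -0.15), 16 microglial markers (-0.11) or 14 neuronal markers (0.10), and 2, 0 and 2 of them had an unadjusted p under 0.05. Estimates were lower in 13 of the astrocyte and 15 of the microglial markers, and higher in 11 of the neuronal markers. The astrocyte markers summed to 11670 to 13032 CPM at 1 month and to 10695 to 11175 CPM at 3 months, without overlap. The sums of the microglial and of the neuronal markers overlapped. None was called by either tool among 17 genes of complement and MHC class I or 31 interferon-stimulated genes, with medians of 0.09 and 0.04 and with 2 and 4 genes at an unadjusted p under 0.05. Of 23 tested genes of cholesterol synthesis, which supplies myelin membrane, none was called by limma or edgeR, 4 had an unadjusted p under 0.05, and 19 had a lower estimate. The lowest p there was that of Lss, lanosterol synthase, at 51.7, 49.6 and 48.4 CPM at 1 month and at 39.9, 37.4 and 38.5 CPM at 3 months (log2 fold change -0.37, limma adjusted p = 0.067). Srd5a1, the steroid 5-alpha reductase of neurosteroid synthesis, was the call among 19 sex steroid and pituitary hormone genes, at 22.0, 22.8 and 17.1 CPM and then at 9.98, 11.1 and 11.8 CPM (log2 fold change -0.88, limma adjusted p = 0.015).

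The same ages were compared in NZB/W-F1 brain, which shares no library with the C57BL/6 groups. Both comparisons came from the same fit and share each gene's estimate of the spread. A gene with a small spread passes more easily in both, so the shared calls are not independent tests. There 41 of 14895 genes (0.275%) were called, 7 (0.047%) higher and 34 (0.228%) lower at 3 months. Called in both strains and in the same direction were 23 genes, which are 31.1% of the 74 in C57BL/6 and 56.1% of the 41 in NZB/W-F1, and 20 of them were lower. Of the 74 genes, 72 had the same sign in NZB/W-F1, against 54.5% of all genes. The 20 include Mog, Cldn11, Cnp, Mobp, Mal, Ugt8a, Gal3st1, Gpr17, Enpp6, Col3a1, Eln, Gsn, Bmf, Rnf122, Arpc1b, Srd5a1, Dnmt3a, Mpzl1 and 9630013A20Rik. Mog had a log2 fold change of -1.21 in NZB/W-F1 and -1.05 in C57BL/6, and Il33 had 1.61 and 1.89. The 3 genes called higher in both were Il33, Abca8a and the long noncoding RNA gene C030029H02Rik. The median NZB/W-F1 log2 fold change was -0.68 for the 46 genes that fell in C57BL/6 (median there -0.85) and 0.28 for the 28 that rose (median there 0.71).

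The gene lists were set side by side in the same way. The myelin median was -0.55 in NZB/W-F1 and -0.56 in C57BL/6, with 9 calls in each, and that of precursor and premyelinating genes was -0.33 and -0.35. The immediate early genes had a median of 0.03 in NZB/W-F1 against 0.96 in C57BL/6, and the heat shock proteins -0.20 against 0.25. These list medians carry no test. The difference between the strains was tested gene by gene as an interaction, and it passed for 1 of 14895 genes (0.00671%), Gm42756. With edgeR no gene passed. Of the 14895 genes, 805 in limma and 746 in edgeR had an unadjusted p under 0.05. That threshold alone lets through a share of about 0.05 where no gene differs, so these counts over all genes show no strain difference by themselves. Of the 74 genes called in C57BL/6, 24 had an unadjusted interaction p under 0.05 in limma. The interaction uses the C57BL/6 values by which the 74 were chosen, so this count cannot be read against that share. Serpinb1a and Prom1, which passed in C57BL/6 with small NZB/W-F1 estimates of 0.31 and -0.34, had interaction log2 values of 0.98 and -0.67 that did not pass (limma adjusted p = 0.75 and 0.76).

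**Figure D5:**
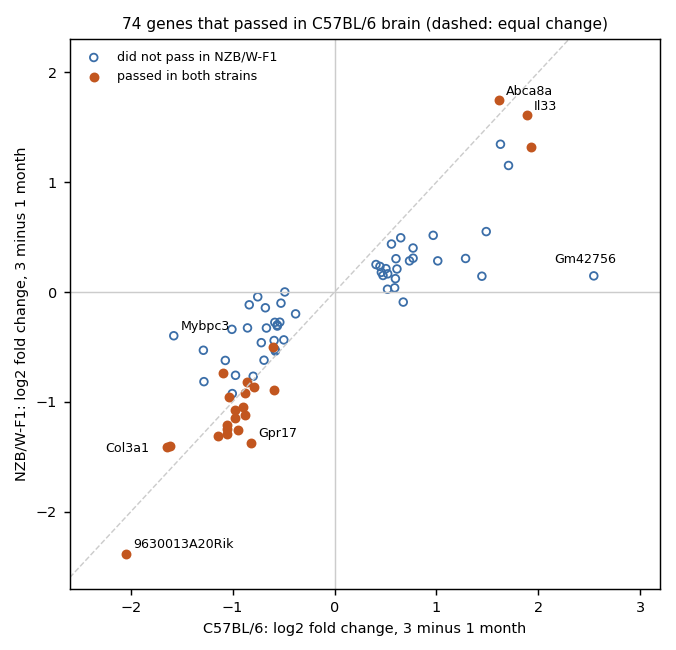
Log2 fold changes (3 minus 1 month) of the 74 genes that passed in C57BL/6 brain, with C57BL/6 on the horizontal and NZB/W-F1 on the vertical axis, filled where the gene also passed in NZB/W-F1. The dashed line marks equal change; the falling genes have medians of -0.85 in C57BL/6 and -0.68 in NZB/W-F1, the rising ones 0.71 and 0.28.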

How the data were processed

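RNA of the whole brain was sequenced in 18 libraries, 3 for each of 2 strains at 1, 3 and 6 months; 6 of them are compared here. Per the labels' protocols, RNA was taken with TRIzol and libraries were made with the TruSeq RNA Sample Prep Kit v2; no source used here gives the strand setting. STAR 2.6 with mm10, HTSeq and edgeR are named in the submitters' processing notes. The deposited brain table is a signal: CPM, per the file name, scaled by a factor per library, with a geometric mean of the totals of 1000000. Whole reads were recovered from the deposited values for 100% of them within a tolerance of 0.01. The plan had assumed plain CPM; the test stayed the same. Kidney and spleen tables were not used here.

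Genes were fitted with limma 3.58.1 (R 4.3.3), trended moderation on log2(value + 0.5), over all 18 brain libraries, which share 1 estimate of the spread; tests are two-sided. All 14895 genes of the table had at least 1 CPM in 3 libraries, and 14888 matched GENCODE vM21 (GRCm38). Fold changes of low genes are understated by the added 0.5. Alternatives were edgeR 4.0.16 on the recovered reads, 2 other scalings, 2 other filters, 2 other values added before the log, a fit of the compared groups, a replicate block and leaving out each library. Setting no filter repeats the main fit, since every gene of the table passed the filter. Named genes are the 14 with the largest rise and the 14 with the largest fall among calls that reach 5 CPM on average in either group and do not overlap, passing over predicted genes (0 rises and 3 falls); up to 4 genes per list with the smallest p, defining markers; and the interaction's calls. Some genes that this rule selects are not reported here. The comparison and the gene lists were chosen with earlier results of these data known. Promoter windows are RefSeq's. Counting intervals and floors cover counting error only. The model was tested on simulated data.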

Additional observations from a re-analysis of the deposited data

Results flagged for a closer look

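The change of Gm42756 between 1 and 3 months differed between C57BL/6 and NZB/W-F1 brain, which was tested as an interaction (log2 difference 2.40, SE 0.32, limma adjusted p = 0.0080). Gm42756 is an antisense RNA gene (chromosome 9, 109537100 to 109552780, plus strand, GRCm38). It had 2, 1 and 1 reads in the C57BL/6 libraries of 1 month and 36, 45 and 62 reads in those of 3 months, which gives 0.161, 0.0609 and 0.110 CPM and then 3.07, 2.61 and 3.56 CPM. The C57BL/6 libraries of 3 months are enough for the gene to meet the filter of 1 CPM in 3 libraries. The ratio from the pooled reads, 4 at 1 month and 143 at 3 months, was 29.2 (95% exact counting interval 11.2 to 109). Each 1-month library lay under 3 reads, and the interval covers counting error but not the spread between samples. In NZB/W-F1 the means were 0.0493 CPM at 1 month and 0.104 CPM at 3 months, at or under the level of 3 reads, so no fold is given there.

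The gene overlaps Fbxw15, an F-box protein gene on the opposite strand, and without a stated strand setting their reads in the shared stretch cannot be told apart. Fbxw15 also rose in C57BL/6, from 2, 4 and 0 reads to 11, 19 and 29 reads (log2 fold change 1.45, SE 0.26, limma adjusted p = 0.017). Its interaction did not pass (log2 1.30, limma adjusted p = 0.76). At 6 months in C57BL/6 the means were 5.74 CPM for Gm42756 and 2.55 CPM for Fbxw15.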

How the results depend on the processing

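The 74 calls (28 higher, 46 lower) became 45 (18 and 27) when only the compared groups were fitted, of which 33 were shared, and 23 to 34 (7 to 10 and 16 to 25) when 1 library was left out. The total was 98 with edgeR, 74 with median-of-ratios and 75 with plain library size scaling. It was 78 with a filter at 5 CPM, 76 with 0.1 and 85 with 2 added before the log. Leaving out the filter repeats the main fit and its 74 calls, since all 14895 genes passed the filter. With a replicate block the total was 54 (19 higher, 35 lower), of which 53 were shared. The labels state no pairing of the samples by replicate number. The same-numbered residual correlations were -0.01, -0.52 and -0.30, and those of different numbers ran from -0.30 to 0.47. Residuals were centred within groups of 3, which ties these correlations to each other, so they cannot show whether samples pair. The 1 interaction call became 0 with edgeR, with the filter at 5 CPM (which removes the gene), with 0.1 added before the log and with only the compared groups, and 0 to 2 when 1 library was left out. It was 0 without the C57BL/6 3-month replicate 3 and 2 without the NZB/W-F1 3-month replicate 1. The cause was not tested. No named gene changed direction. Depth limits the genes under 5 CPM, of which 7 were called from as few as 0 to 61 reads a library at 1 month.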

Other observations

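Other rises, named after their values were seen, were of genes with low counts. C030029H02Rik, a long noncoding RNA gene, had 7, 19 and 4 reads at 1 month and 38, 82 and 72 reads at 3 months (log2 fold change 1.93, limma adjusted p = 0.0015). A230001M10Rik, also noncoding, had 15, 20 and 4 reads and then 41, 73 and 80 reads (log2 fold change 1.71, limma adjusted p = 0.0022). The 3-month libraries were all higher in both, and both passed under every alternative. Pkd2l1, a channel subunit of the cerebrospinal fluid-contacting neurons around the central canal, was at 0.969, 0.853 and 0.876 CPM and then at 4.01, 2.55 and 3.90 CPM (log2 fold change 1.49, limma adjusted p = 0.042). The hindbrain and spinal cord genes overlapped between the ages, with 34.6 to 105 CPM at 3 months, and the part of caudal tissue in the Pkd2l1 value was not tested.

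Some further calls were also named after their values were seen. Kif21a and Kif13b, kinesin motors of axons, rose by 0.48 and 0.52 on the log2 scale (limma adjusted p = 0.037 and 0.047). Rapgef4, a cAMP-activated exchange factor, rose by 0.56 (limma adjusted p = 0.033). Among the falls, Ttyh1, a glial membrane protein, fell by 0.38 on the log2 scale (limma adjusted p = 0.036), and Lpar1, a lysophosphatidic acid receptor of oligodendrocytes, fell by 0.58 (limma adjusted p = 0.030). Fam107a, a stress-regulated actin-binding protein, fell by 0.59 (limma adjusted p = 0.033), and Pla2g3, a secreted phospholipase, fell by 0.97 (limma adjusted p = 0.028).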
